A study of Mus musculus with 24 samples.

Results

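Long and unsaturated fatty acids in the liver are made by elongases, which add carbon units to an acyl-CoA, and by desaturases, which place double bonds in the chain. The 10 genes followed here, *Elovl1*, *Elovl2*, *Elovl3*, *Elovl5*, *Elovl6*, *Fads1*, *Fads2*, *Fads3*, *Fads6* and *Scd2*, were chosen by name, and each was read from a probe set annotated with that single symbol. Each of the 10 had 1 such probe set, out of 19938 genes with a single-symbol probe set on the array. RNA was measured in livers of 24 male C57BL6 mice in 4 groups of 6 mice, with 1 Mouse Gene ST array (Affymetrix) per mouse: *Ogg1-/-* mice on a high-fat diet (HFD), wild-type (WT) mice on the HFD, *Ogg1-/-* mice on chow and WT mice on chow. *Ogg1* encodes a glycosylase that starts the repair of oxidised guanine in DNA, and the mice carried the mutation in every tissue, not in the liver alone. Diets were taken freely for 10 weeks by mice housed singly from 10 weeks of age according to the labels, whereas the methods give a slightly later start. According to the methods, the mutant line had been backcrossed to C57BL/6J and was kept by heterozygous matings, and it is not stated whether the WT mice were littermates. No source used here states the hour at which livers were taken. Values are log2 signals, so that a difference of 1 unit is a doubling.

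In this pathway the condensing enzymes of the ELOVL family set the chain length. ELOVL6 extends palmitate to stearate, ELOVL3 and ELOVL1 extend longer saturated and monounsaturated chains, and ELOVL5 and ELOVL2 extend polyunsaturated chains, with ELOVL2 acting late on the way to docosahexaenoic acid. FADS2 takes the first desaturation step on linoleic and alpha-linolenic acid, FADS1 the later step that gives arachidonic and eicosapentaenoic acid, and the stearoyl-CoA desaturases make monounsaturated fats such as oleate. In the liver, many of these genes are known targets of sterol regulatory element binding protein and of the nuclear receptors that sense fatty acids and oxysterols, and *Elovl3* of the mouse is also known for a daily rhythm and for higher expression in males.

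Promoter windows, from 250 bases before to 50 bases after an annotated start, were taken from RefSeq (GRCm38.p6) for 7 of the 10 genes. No window was available for *Elovl3*, *Fads1* or *Scd2*, so their promoters were not searched. Those of *Elovl2*, *Elovl5*, *Elovl6* and *Fads2* are printed because *Elovl2* differed most between genotypes on the HFD and because *Elovl5*, *Elovl6* and *Fads2* varied together between livers. Capitals mark the E-box with the letters CACGTG, the CCAAT box, named for its letters, and the GC box with the letters GGGCGG, each on either strand. The windows lie at chr13:41220354-41220653 on the minus strand for *Elovl2* (the farther upstream of its annotated starts), chr9:77917115-77917414 on the plus strand for *Elovl5*, chr3:129532136-129532435 on the plus strand for *Elovl6* and chr19:10101454-10101753 on the minus strand for *Fads2*.
Elovl2: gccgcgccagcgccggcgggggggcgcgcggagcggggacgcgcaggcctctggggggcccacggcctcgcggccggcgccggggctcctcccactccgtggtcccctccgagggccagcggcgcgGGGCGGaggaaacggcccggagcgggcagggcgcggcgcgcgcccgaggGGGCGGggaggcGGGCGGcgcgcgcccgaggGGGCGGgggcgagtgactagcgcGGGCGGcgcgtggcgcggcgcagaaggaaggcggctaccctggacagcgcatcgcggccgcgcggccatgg
Elovl5: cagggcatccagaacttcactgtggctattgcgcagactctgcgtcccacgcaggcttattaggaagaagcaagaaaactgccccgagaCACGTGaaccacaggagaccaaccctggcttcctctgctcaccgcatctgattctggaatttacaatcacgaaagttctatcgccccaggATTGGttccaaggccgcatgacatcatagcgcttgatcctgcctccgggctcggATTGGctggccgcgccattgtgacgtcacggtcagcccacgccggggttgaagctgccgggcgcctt
Elovl6: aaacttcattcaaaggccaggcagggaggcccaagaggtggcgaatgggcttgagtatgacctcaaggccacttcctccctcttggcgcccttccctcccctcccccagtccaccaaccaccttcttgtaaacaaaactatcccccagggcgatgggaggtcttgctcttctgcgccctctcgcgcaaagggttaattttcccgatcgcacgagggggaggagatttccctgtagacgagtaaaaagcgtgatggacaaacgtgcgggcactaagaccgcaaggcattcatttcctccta
Fads2: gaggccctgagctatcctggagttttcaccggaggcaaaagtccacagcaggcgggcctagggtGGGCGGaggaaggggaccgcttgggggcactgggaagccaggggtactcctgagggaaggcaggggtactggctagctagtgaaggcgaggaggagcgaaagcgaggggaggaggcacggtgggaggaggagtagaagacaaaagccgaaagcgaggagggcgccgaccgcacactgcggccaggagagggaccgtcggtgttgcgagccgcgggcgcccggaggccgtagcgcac

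The *Elovl5* window held an E-box and CCAAT boxes on the reverse strand, that of *Elovl2* repeated GC boxes and that of *Fads2* a GC box, while none of these letters stood in the *Elovl6* window. An E-box was found in 7.15%, a CCAAT box in 37.4% and a GC box in 35.7% of all 32851 windows. The sterol regulatory element searched (TCACNCCAC), present in 1.24% of windows, and the D-box (TTATGTAA), present in 0.938%, were found in 0 of the 7 genes. The core of the ROR element (TAGGTCA), present in 2.61% of windows, was found in *Fads6*. All motifs were searched on both strands, and marked motifs of different kinds share bases in none of the printed windows. A match or its absence in these 300 bases says nothing about binding. In the same annotation *Fads3*, *Fads2* and *Fads1* are immediate neighbours on chromosome 19, and *Scd2* lies between *Scd3* and *Scd4* on that chromosome.

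The *Ogg1* probe set averaged 5.87 ± 0.13 in HFD-fed *Ogg1-/-* and 6.46 ± 0.08 in HFD-fed WT livers, and 5.93 ± 0.06 in chow-fed *Ogg1-/-* and 6.47 ± 0.11 in chow-fed WT livers (SD, n = 6 each), with no overlap between genotypes on either diet (exact permutation test, two-sided, p = 0.00216, which is the lowest possible with 6 against 6). Array medians ran from 5.899 to 5.972, correlations between arrays from 0.952 to 0.993, and 0 arrays were identical. *Alb*, the albumin gene of hepatocytes, lay near the highest signal on any array, 14.81 (14.15 ± 0.05 in HFD-fed *Ogg1-/-* and 14.18 ± 0.08 in HFD-fed WT livers), and of 6 measured hepatocyte markers 0 passed the test between genotypes on either diet. *Adipoq*, the defining adipocyte hormone, stayed between 3.99 and 4.80 in all 24 livers, below every array's median, while *Fabp4*, a fatty acid binding protein on the same marker list, ran from 6.96 to 8.34, above every array's median. The first principal component of the deviations of chow-fed livers from their group means, which took 40.2% of their variance, gave each liver a score, called the axis score. It was highest in chow-fed *Ogg1-/-* replicate 1 (80.9) and ran from 18.5 to 54.8 in HFD-fed *Ogg1-/-* livers, against -20.7 to 10.4 in HFD-fed WT livers.

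Of the elongases, *Elovl3* was the gene whose level separated the groups most completely. In HFD-fed livers it ran from 10.37 (lowest) through 10.97 (median) to 11.11 (highest) in *Ogg1-/-* mice, against 11.31, 11.75 and 12.10 in WT mice. In chow-fed livers the lowest, median and highest values were 11.16, 11.82 and 11.98 in *Ogg1-/-* mice, against 12.20, 12.29 and 12.63 in WT mice. On each diet every *Ogg1-/-* liver thus lay below every WT liver, and in each genotype every HFD-fed liver lay below every chow-fed liver. The 4 group means therefore ordered as HFD-fed *Ogg1-/-* (10.83 ± 0.33), chow-fed *Ogg1-/-* (11.70 ± 0.32), HFD-fed WT (11.71 ± 0.28) and chow-fed WT (12.37 ± 0.16; SD, n = 6 each), and the middle groups of this order overlapped and differed by -0.02, less than their spread.

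*Elovl3* was lower in HFD-fed *Ogg1-/-* than in HFD-fed WT livers by 1.85-fold (log2 difference -0.88, SE 0.15; limma adjusted p = 0.00156). This call was the same in each of the 34 alternative settings, including the fit with the axis score. On chow the difference was -0.67 (SE 0.15, 1.59-fold lower; limma adjusted p = 0.0498), at the edge of the threshold, and it no longer passed in 18 of the 24 fits that each left out 1 array (adjusted p from 0.0288 to 0.119 over the 24), nor in 7 of the 10 other alternatives (from 0.026 to 0.225 over the 10). The HFD lowered *Elovl3* by 0.87 on the log2 scale in *Ogg1-/-* livers (log2 difference -0.87; limma adjusted p = 0.00176), a call lost only with the methods' t-test (adjusted p = 0.0523). In WT livers HFD minus chow was -0.66 (limma adjusted p = 0.0382), a call that was lost in 11 of the 24 fits without 1 array and in 3 other alternatives, at adjusted p from 0.0504 to 0.112. The interaction, the genotype difference on the HFD minus that on chow, was -0.21, with a 95% confidence interval from -0.67 to 0.24 (limma adjusted p = 0.881).

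**Figure D1:**
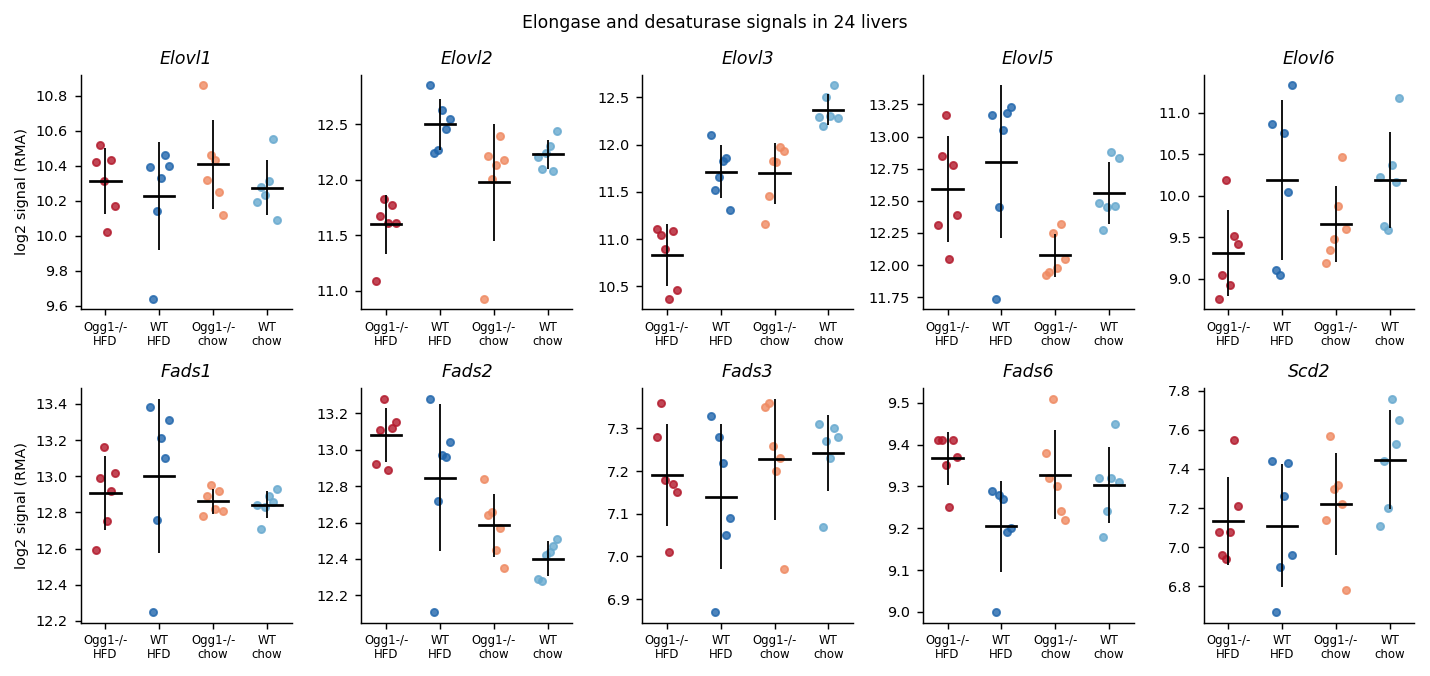
Log2 signal of each of the 10 genes (vertical axis, separate scale per gene) in the 4 groups (horizontal axis). Points are single livers (6 per group), thick lines the group means and thin lines ±1 SD. *Elovl3* shows no overlap between genotypes on either diet, *Elovl2* none on the HFD, and the WT HFD group has livers far below the rest in *Elovl5*, *Elovl6*, *Fads1* and *Fads2*.

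Other genes with known daily or sex-biased expression were counted beside *Elovl3*. Both lists were chosen with earlier results of these data known, so the counts describe these livers and are no independent test. The summed signal of a list is the log2 of its added unlogged signals, so its brightest genes weigh most. Of 12 clock genes that peak opposite to *Arntl*, 10 were higher and 0 lower in *Ogg1-/-* than in WT livers on each diet, and their summed signal ran from 13.31 to 13.59 in HFD-fed *Ogg1-/-* livers against 12.45 to 12.89 in HFD-fed WT livers, and from 13.24 to 13.41 in chow-fed *Ogg1-/-* livers against 12.40 to 12.65 in chow-fed WT livers. Of 15 measured male-biased liver genes, 0 were higher and 9 lower in HFD-fed *Ogg1-/-* than in HFD-fed WT livers, with 0 in either direction on chow, and their sum ran from 15.30 to 15.61 in HFD-fed *Ogg1-/-* livers against 15.32 to 16.12 in HFD-fed WT livers. Between genotypes, 9.55% of all 35556 probe sets were lower and 10.3% higher on the HFD, and 0.236% lower and 0.242% higher on chow. With probe sets of a mean under 6 left out, 3514 of 17321 were lower and 4084 higher on the HFD. *Gstp1* and *Mup3*, the brightest of the 15, were not among the lower genes. They averaged 13.61 and 13.63 in HFD-fed *Ogg1-/-* livers, against 13.41 and 13.51 in HFD-fed WT livers. Between diets, 12 of the 15 male-biased genes were lower and 0 higher on the HFD in *Ogg1-/-* livers, and 3 were lower and 0 higher in WT livers. Of the 12 clock genes, 6 were higher and 3 lower on the HFD in *Ogg1-/-* livers, and 8 were higher and 0 lower in WT livers. Over all probe sets, HFD minus chow gave 4.58% higher and 4.94% lower in *Ogg1-/-* livers, and 0.532% higher and 0.394% lower in WT livers. The part of either list in the *Elovl3* differences was not tested, and time of day cannot be told apart from genotype where the hour of collection is unknown.

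*Elovl2* separated the genotypes on the HFD. It ran from 11.09 (lowest) through 11.64 (median) to 11.83 (highest) in HFD-fed *Ogg1-/-* livers, against 12.24, 12.50 and 12.85 in HFD-fed WT livers. On chow the values were 10.93, 12.15 and 12.39 in *Ogg1-/-* livers, against 12.08, 12.22 and 12.44 in WT livers. The HFD groups did not overlap, while the chow groups did except for 2 low *Ogg1-/-* livers, of which replicate 1 stood far below the other 5.

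*Elovl2* was lower by 1.87-fold in *Ogg1-/-* than in WT livers on the HFD (log2 difference -0.90, SE 0.18; limma adjusted p = 0.00247), and it passed in each alternative, with adjusted p from 2.6e-05 to 0.0353. On chow the difference was -0.25 (95% confidence interval from -0.61 to 0.11; limma adjusted p = 0.469). HFD minus chow was -0.38 in *Ogg1-/-* livers (limma adjusted p = 0.177) and 0.27 in WT livers (limma adjusted p = 0.516). The interaction was -0.65 (95% confidence interval from -1.17 to -0.14), at an unadjusted p of 0.0151 and a limma adjusted p of 0.621. Chow-fed *Ogg1-/-* replicate 1 bore on these values. Without it, HFD minus chow in *Ogg1-/-* livers was -0.59 (limma adjusted p = 0.000872) and the interaction -0.86 (limma adjusted p = 0.0229), both past the threshold. Calls over all 35556 probe sets also rose in that fit. For the interaction, 140 were higher and 399 lower, against 0 and 1 with all arrays. For HFD minus chow in *Ogg1-/-* livers, 4563 were higher and 4472 lower, against 1630 and 1758 with all arrays.

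*Elovl2* also followed the axis score more closely than any other of the 10 genes. Within groups its deviations had Pearson's r = -0.834 with the score over 24 livers (Spearman's rho = -0.603), and r = -0.66 without the 2 livers farthest out. The score was computed from all probe sets, these genes included, so this is a description and was not tested. With the score as a covariate the genotype difference on the HFD was -0.48 (limma adjusted p = 0.0353) and that on chow 0.05. In the same fit *Elovl2* was higher on the HFD than on chow in WT livers, by 0.48 (limma adjusted p = 0.0188). For *Elovl3* the correlation with the score was -0.332, with rho = -0.06, and r = 0.106 without the 2 outermost livers.

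**Figure D2:**
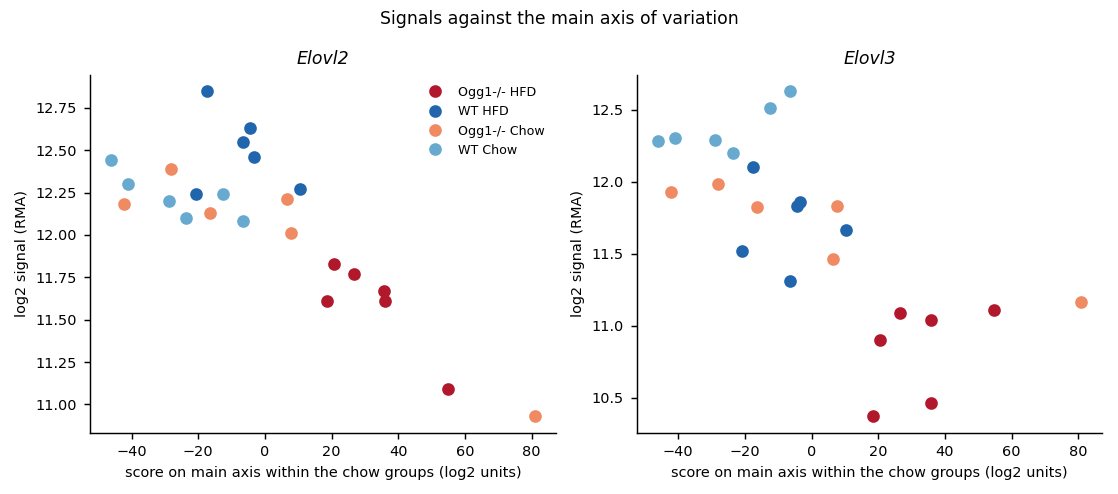
Log2 signal of *Elovl2* (left) and *Elovl3* (right) against the axis score of each liver (first principal component of the chow-fed livers' deviations). Each point is 1 liver, coloured by group. *Elovl2* is lowest in chow-fed *Ogg1-/-* replicate 1, at a score of 80.9, and HFD-fed *Ogg1-/-* livers all have scores of 18.5 or more.

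Among the other elongases, *Elovl6* had the widest spread. In HFD-fed livers it ran from 8.76 (lowest) through 9.23 (median) to 10.19 (highest) in *Ogg1-/-* mice, against 9.04, 10.40 and 11.33 in WT mice. In chow-fed livers it ran from 9.19 through 9.54 to 10.46 in *Ogg1-/-* mice, against 9.59, 10.19 and 11.17 in WT mice. The groups overlapped on both diets. On the HFD, WT replicates 2 and 3 lay at 9.10 and 9.04, the other 4 WT livers at 10.04 or above, and *Ogg1-/-* replicate 3 at 10.19. The genotype difference on the HFD was -0.88 (SE 0.35, 95% confidence interval from -1.61 to -0.15; limma adjusted p = 0.0833) and on chow -0.53 (limma adjusted p = 0.442). The HFD difference passed without WT HFD replicate 2 (-1.10, limma adjusted p = 0.0355), without WT HFD replicate 3 (-1.11, limma adjusted p = 0.0247), without HFD-fed *Ogg1-/-* replicate 3 (-1.06, limma adjusted p = 0.0413) and with dim probe sets left out (limma adjusted p = 0.0459). With the axis score as a covariate it was -0.47 (limma adjusted p = 0.576).

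*Elovl5* did not pass in any comparison. In HFD-fed livers it averaged 12.59 ± 0.41 in *Ogg1-/-* and 12.80 ± 0.60 in WT mice, and in chow-fed livers 12.08 ± 0.17 in *Ogg1-/-* and 12.56 ± 0.24 in WT mice (SD, n = 6 each). On chow 5 of the 6 *Ogg1-/-* livers lay below every WT liver, and the difference was -0.48 (95% confidence interval from -0.92 to -0.04; limma adjusted p = 0.237). *Elovl1* was nearly level, with group means from 10.23 to 10.41 and none of its differences between genotypes on a diet, or between diets in a genotype, above 0.13 in size.

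Among the desaturases, *Fads2* alone passed a test, and it did so between diets in *Ogg1-/-* livers. It ran from 12.89 (lowest) through 13.12 (median) to 13.28 (highest) in HFD-fed *Ogg1-/-* livers, against 12.35, 12.61 and 12.84 in chow-fed *Ogg1-/-* livers. In WT livers it ran from 12.11 through 12.97 to 13.28 on the HFD, against 12.28, 12.43 and 12.51 on chow. Every HFD-fed *Ogg1-/-* liver was above every chow-fed one, and 5 of 6 HFD-fed WT livers were above every chow-fed WT liver, with replicate 2 below them all. HFD minus chow was 0.50 in *Ogg1-/-* livers (SE 0.13, 1.41-fold higher; limma adjusted p = 0.0216) and 0.45 in WT livers (limma adjusted p = 0.117), and the interaction was 0.05 (95% confidence interval from -0.34 to 0.43; limma adjusted p = 0.979).

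Single arrays decided which of these passed. Without WT HFD replicate 2, the *Fads2* difference between diets in WT livers was 0.59 (limma adjusted p = 0.00261). In *Ogg1-/-* livers the call was lost without chow-fed replicate 5 (limma adjusted p = 0.0522), without chow-fed replicate 6 (limma adjusted p = 0.0639) and with the axis score as a covariate (0.41, limma adjusted p = 0.105). Between genotypes *Fads2* differed by 0.23 on the HFD (limma adjusted p = 0.241) and by 0.18 on chow (limma adjusted p = 0.477).

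*Fads1*, the neighbour of *Fads2*, had no difference that passed between diets or genotypes. It averaged 12.90 ± 0.20 in HFD-fed *Ogg1-/-* and 13.00 ± 0.43 in HFD-fed WT livers, and 12.86 ± 0.07 in chow-fed *Ogg1-/-* and 12.84 ± 0.07 in chow-fed WT livers (SD, n = 6 each). HFD minus chow was 0.04 (95% confidence interval from -0.23 to 0.32) in *Ogg1-/-* livers and 0.16 (from -0.12 to 0.44) in WT livers, and neither passed. The SD was larger in the HFD-fed than in the chow-fed livers of each genotype, though the difference in spread was not tested.

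*Fads6*, of less known function, was higher in 5 of 6 HFD-fed *Ogg1-/-* livers than in every HFD-fed WT liver. It ran from 9.25 through 9.39 to 9.41 in *Ogg1-/-* livers, against 9.0, 9.24 and 9.29 in WT livers, a difference of 0.16 (95% confidence interval from 0.03 to 0.29; limma adjusted p = 0.0741). The difference passed under 4 alternatives, at adjusted p from 0.0431 to 0.0499. *Fads3*, which acts on sphingoid bases, had group means from 7.14 to 7.24, and its differences were at most 0.11 in size. *Scd2*, the stearoyl-CoA desaturase best known from brain, averaged 7.14 ± 0.22 in HFD-fed *Ogg1-/-* and 7.11 ± 0.31 in HFD-fed WT livers, and 7.22 ± 0.26 in chow-fed *Ogg1-/-* and 7.45 ± 0.25 in chow-fed WT livers (SD, n = 6 each), and passed in no comparison.

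Counted together, 2 of the 10 genes were lower and 0 higher in *Ogg1-/-* livers on the HFD at a limma adjusted p under 0.05, beside 9.55% of all 35556 probe sets lower and 10.3% higher. Both were also at least 1.5-fold lower, which held for 4.8% of all probe sets. All 10 genes had a mean above 6, while many probe sets did not. With probe sets of a mean under 6 left out of the fit, 3514 of 17321 were lower and 4084 higher on the HFD. In that fit *Elovl6* also passed as lower and *Fads6* as higher. The share at least 1.5-fold lower was not counted there, so the 4.8% rests partly on dim probe sets. On chow 1 of the 10 was lower and 0 higher, beside 0.236% of probe sets lower and 0.242% higher. HFD minus chow gave 1 higher and 1 lower in *Ogg1-/-* livers (4.58% of probe sets higher, 4.94% lower) and 0 higher and 1 lower in WT livers (0.532% higher, 0.394% lower). For the interaction 0 of the 10 passed by limma, 1 was at an unadjusted p under 0.05, and 0.00281% of probe sets passed in either direction. The median log2 difference over the 10 genes was -0.04 on the HFD and -0.12 on chow between genotypes, beside 0.021 and 0.017 over all probe sets.

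**Figure D3:**
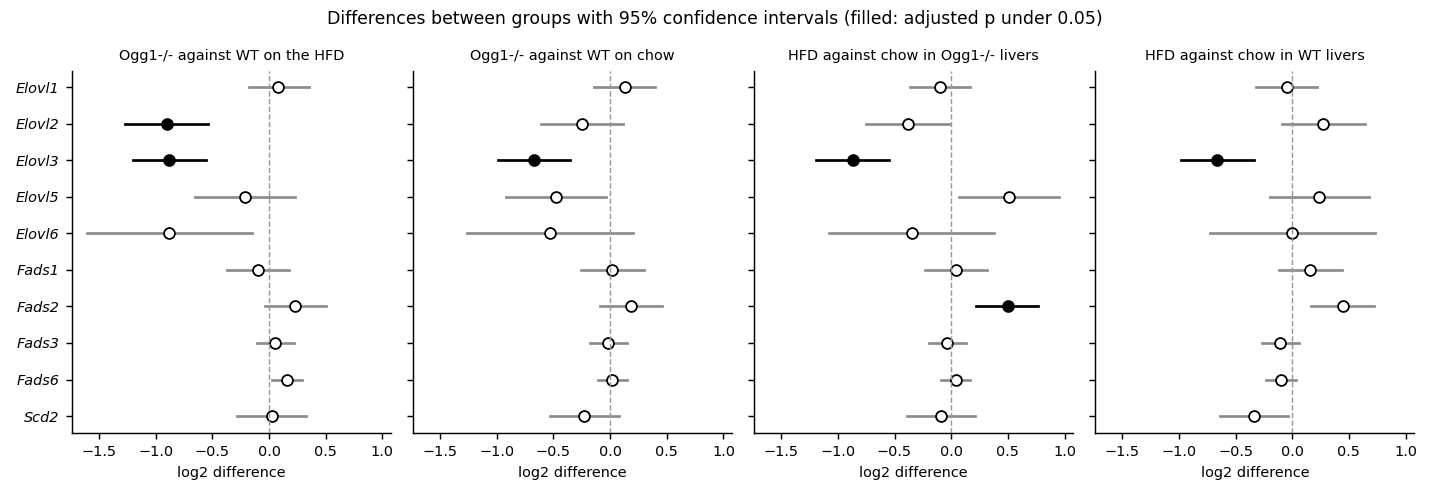
Log2 difference of each gene (vertical axis) in the 4 comparisons, with 95% confidence intervals from limma. Filled points passed at an adjusted p under 0.05. *Elovl3* lies left of 0 in all 4 comparisons, *Elovl2* passes on the HFD between genotypes alone, and *Fads2* lies right of 0 for the HFD against chow in *Ogg1-/-* livers.

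Between livers of the same group, several of the genes rose and fell together. WT HFD replicate 2 was the lowest of its group in 8 of the 10 genes, with 11.74 in *Elovl5* against 13.05 to 13.23 in replicates 1, 4, 5 and 6, and with 12.25 in *Fads1* against 13.10 to 13.38. After removal of group means, 16 of 45 pairs of genes were positively and 0 negatively correlated over the 24 livers (Pearson, two-sided permutation within groups, adjusted p under 0.05 over the 45 pairs). The closest pairs joined the polyunsaturated steps. *Fads1* and *Fads2* had r = 0.892 (permutation p = 4e-05, adjusted 0.000787; rho = 0.81, p = 0.00022, adjusted 0.0018), and *Elovl5* and *Fads1* had r = 0.888 (permutation p = 6e-05, adjusted 0.000787; rho = 0.824, p = 0.00024, adjusted 0.0018). Without the 2 livers farthest from the median of the gene named first, r was 0.711 for *Fads1* with *Fads2* and 0.789 for *Elovl5* with *Fads1*. *Elovl5* with *Elovl6* had r = 0.78 and *Elovl6* with *Fads1* r = 0.778 (rho = 0.783 and 0.756; permutation p = 0.00015 and 2e-05, adjusted 0.00112 and 0.000787), at 0.718 and 0.747 without 2 livers.

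The same correlations were computed for each diet. Within the 12 HFD livers r was 0.97 for *Fads1* with *Fads2* and 0.91 for *Elovl5* with *Fads1*, and within the 12 chow livers 0.336 and 0.809. Taken alone, the 12 HFD livers gave 11 pairs past the threshold and the 12 chow livers 0. Whether the diets differ was not tested. With the axis score removed from each gene, *Fads2* within the 12 chow livers had r = 0.829 with *Fads1*, 0.848 with *Elovl5* (0.205 before) and 0.702 with *Elovl6* (-0.0242 before). *Elovl3* had a smaller part in this pattern. With the score removed, over all 24 livers, it passed with *Fads6* (r = 0.503, permutation adjusted p = 0.0245) and *Elovl1* (r = 0.505, permutation adjusted p = 0.0469). Before that removal it passed with none of the other 9 genes. Within the 12 chow livers *Elovl1* and *Elovl2* ran in opposite directions (r = -0.851), against r = 0.342 within the 12 HFD livers, and over all 24 livers they had r = -0.314. Chow-fed *Ogg1-/-* replicate 1 lay farthest out on the axis and deviated from its group mean by 0.451 in *Elovl1* and by -1.042 in *Elovl2*. With the axis score removed, r was -0.244 within the chow livers and 0.499 over all 24 livers.

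**Figure D4:**
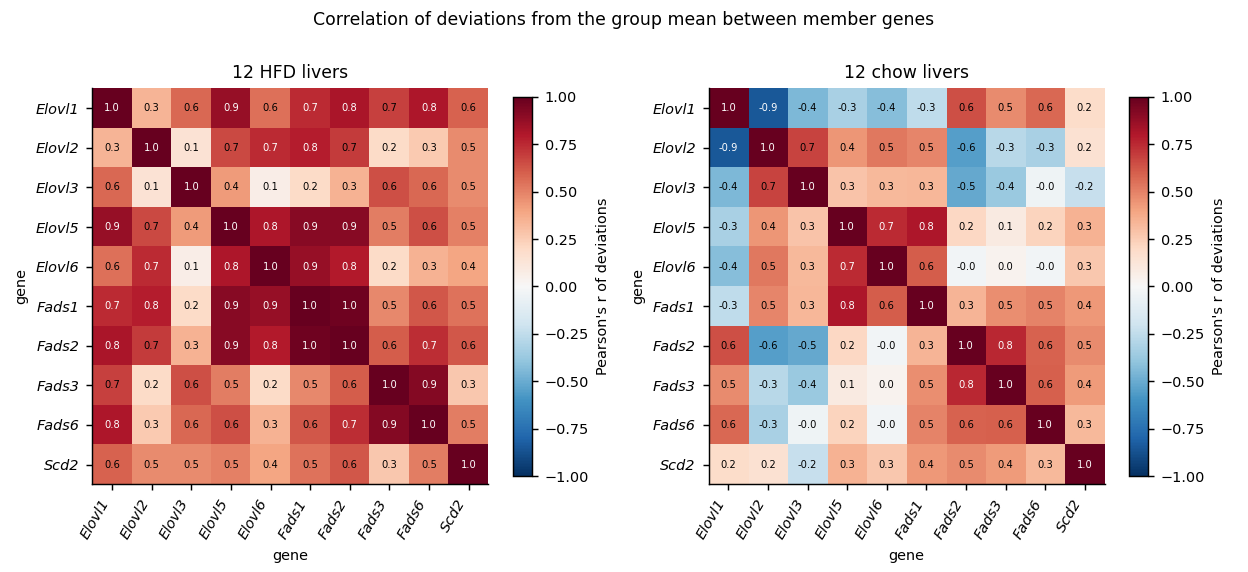
Pearson's r between the 10 genes of their deviations from the group mean, within the 12 HFD livers (left) and within the 12 chow livers (right), from blue at -1 to red at 1. *Elovl5*, *Elovl6*, *Fads1* and *Fads2* form a red block in the HFD livers, while in the chow livers the deposited values give *Fads2* a lower r with the other genes of that block (0.336 with *Fads1*, against 0.829 once the axis score is removed, which is not plotted).

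The same livers stood low in further lipid synthesis genes, which were set beside the 10 after their values had been seen (40 correlations). *Scd1*, the main stearoyl-CoA desaturase of liver, had r = 0.941 with *Fads1* and r = 0.938 with *Elovl5* (rho = 0.887 and 0.89; permutation p = 4e-05 and 3e-05, adjusted 0.000533 each), at 0.868 and 0.902 without 2 livers, and within the 12 chow livers at 0.787 and 0.942. *Sqle*, which encodes squalene epoxidase of cholesterol synthesis, had r = 0.87 with *Fads1* and r = 0.764 with *Elovl6* (rho = 0.743 and 0.644; permutation p = 0.00012 and 0.00106, adjusted 0.00107 and 0.00424). *Sqle* lay at 7.05 and 7.71 in WT HFD replicates 2 and 3, against 9.16 to 10.92 in the other 4 livers of that group. It ran from 5.98 to 7.24 in HFD-fed *Ogg1-/-* livers, and from 9.48 to 10.73 in the chow-fed livers of both genotypes. *Fasn*, the fatty acid synthase, had r = 0.836 and rho = 0.816 with *Fads2* (permutation p = 0.00016, adjusted 0.00107). *Srebf1*, by contrast, had r from -0.148 to 0.274 with *Elovl5*, *Elovl6*, *Fads1* and *Fads2*, and none of these passed.

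**Figure D5:**
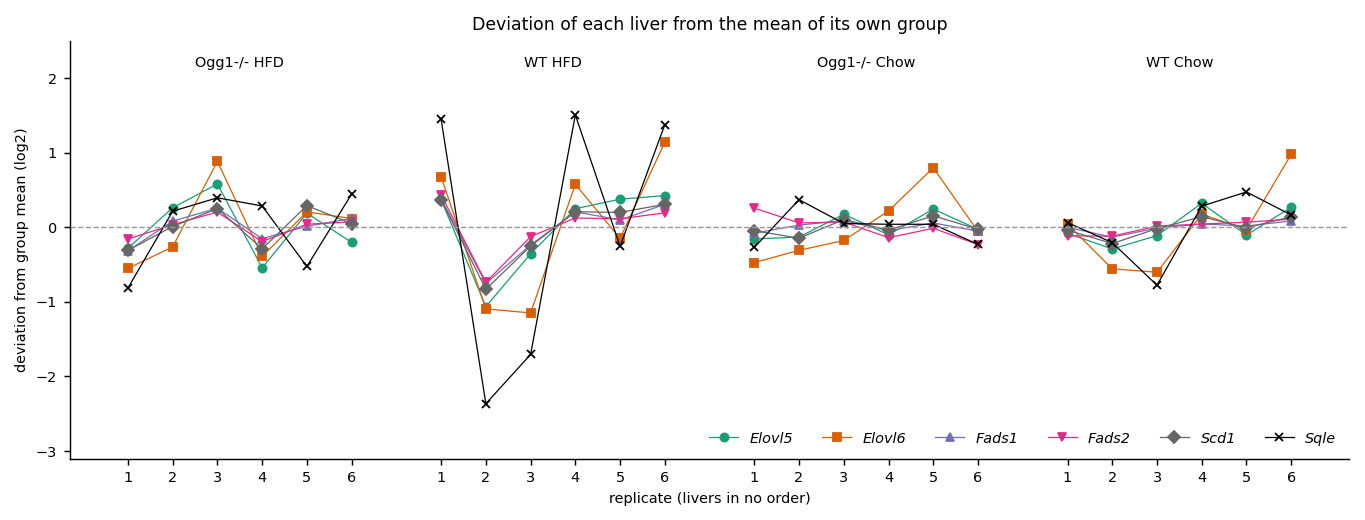
Deviation of each liver from the mean of its own group (log2, vertical axis) for *Elovl5*, *Elovl6*, *Fads1*, *Fads2*, *Scd1* and *Sqle*, by group and replicate (horizontal axis, in no order). All 6 genes lie below 0 in WT HFD replicates 2 and 3, and above 0 in replicates 1, 4 and 6.

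Genes that act beside the 10 were counted in the same fit. Of the 7 measured further elongases and desaturases, 0 passed by limma between genotypes on either diet, and 0 were at an unadjusted p under 0.05. *Scd1* differed by 0.06 on the HFD (limma adjusted p = 0.847) and by -0.17 on chow. Of 10 genes of the rest of the elongation cycle and its electron supply, 2 were higher and 2 lower on the HFD and 0 passed on chow. Of all probe sets, 10.3% were higher and 9.55% lower on the HFD. With those of a mean under 6 left out, 4084 of 17321 were higher and 3514 lower. *Hacd1*, a dehydratase of the cycle, averaged 8.29 ± 0.17 in HFD-fed *Ogg1-/-* and 7.55 ± 0.28 in HFD-fed WT livers (SD, n = 6 each; difference 0.74, limma adjusted p = 0.00208), and *Cyb5a*, an electron carrier for desaturases, was higher by 0.22. *Hsd17b12*, the ketoreductase of the cycle, was lower by 0.44 (log2 difference -0.44, limma adjusted p = 0.0256), and *Cyb5b* had a difference of -0.41.

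Of 14 measured genes of lipogenesis and its regulators, 1 was higher and 1 lower in HFD-fed *Ogg1-/-* than in HFD-fed WT livers, with 0 on chow. *Srebf1*, a regulator of fatty acid synthesis genes, ran from 10.85 through 10.91 to 11.21 in HFD-fed *Ogg1-/-* livers, against 9.75, 10.02 and 10.45 in HFD-fed WT livers (difference 0.92, limma adjusted p = 0.00256). The groups did not overlap, whereas *Elovl6*, *Fads1* and *Scd1* overlapped. *Acss2*, which makes acetyl-CoA from acetate, had a difference of -1.09 (limma adjusted p = 0.0194). Of 10 acyl-CoA synthetases and phospholipid remodelling genes, 3 were higher and 2 lower on the HFD. The higher ones included *Mboat7* (0.48) and *Agpat3* (0.27). The lower ones were *Acsl4* (-1.15) and *Acsl5* (-0.95), which activate long-chain fatty acids. Of 8 genes of peroxisomal beta-oxidation, 2 were higher (*Acaa1b*, 0.62, and *Acaa1a*, 0.37, both thiolases) and 2 lower (*Abcd3*, a peroxisomal transporter, -0.64, and *Ppara*, a nuclear receptor for fatty acids, -0.37). In both of these lists 0 genes passed on chow. The HFD counts of this paragraph stand beside 10.3% of all probe sets higher and 9.55% lower. With probe sets of a mean under 6 left out, 4084 of 17321 were higher and 3514 lower.

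Markers of other liver cells were counted beside the differences of *Elovl2*, *Elovl3* and *Fads2*. In HFD-fed *Ogg1-/-* relative to HFD-fed WT livers, 4 of 5 endothelial, 2 of 5 stellate and 2 of 6 Kupffer cell and macrophage markers were lower and 0 higher (on chow 0 of each), while 0 of 5 adipocyte and 0 of 4 cholangiocyte markers passed. Of all probe sets 9.55% were lower and 10.3% higher on the HFD. The median difference was -0.60 for endothelial, 0.02 for stellate and -0.18 for Kupffer cell and macrophage markers. *Des*, *Col1a1*, *Col3a1*, *Cd68* and *Marco*, of the last 2 lists, had higher means in HFD-fed *Ogg1-/-* livers and did not pass. The summed endothelial signal ran from 9.83 to 10.08 in HFD-fed *Ogg1-/-* livers, against 10.16 to 10.83 in HFD-fed WT livers, and the Kupffer cell and macrophage sum from 11.02 to 11.37, against 11.22 to 11.66. The stellate sum ran from 9.61 to 10.07, against 9.83 to 10.58. Between diets in *Ogg1-/-* livers, where *Elovl3* and *Fads2* passed, 4.58% of all probe sets were higher and 4.94% lower on the HFD. There, 3 of 5 endothelial markers were lower, 1 of 6 Kupffer cell and macrophage markers was higher, and 1 of 5 adipocyte markers was higher. The last was *Fabp4*, with 7.68 to 8.32 in HFD-fed against 7.13 to 7.63 in chow-fed *Ogg1-/-* livers (difference 0.68, limma adjusted p = 0.00966). The summed adipocyte signal ran from 8.49 to 8.94 against 8.23 to 8.65, but *Fabp4*, the brightest of the 5, weighs most in that sum. The median difference over the 5 adipocyte markers was -0.04. In these bulk samples fewer cells of a type and less RNA per cell cannot be told apart, and the part of other cell types in the *Elovl2*, *Elovl3* and *Fads2* differences was not tested.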

How the data were processed

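Total RNA of 24 livers was hybridised to Mouse Gene ST arrays, 1 array per mouse. The authors deposited 1 log2 value per probe set and array, between 1.815 and 14.81, made by RMA (robust multiarray averaging) according to their processing notes (version not given in the sources used here). Then a linear model with the 4 group means was fitted to all 35556 probe sets, unfiltered, in R 4.3.3 using limma 3.58.1 (lmFit, contrasts.fit, eBayes). A gene passed at an adjusted p under 0.05 (Benjamini-Hochberg over all probe sets, two-sided). Where a gene had several probe sets with that single symbol, that with the highest mean over 24 arrays was used. Precision is limited by the number of arrays. The fit was tested on simulated data.

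Named were the 10 genes and, of each other list, in each genotype comparison up to 4 genes with the largest difference among those that passed, else the gene with the smallest p; of these, those beside which a result stands are given, with *Srebf1* and *Scd1*. *Sqle* and *Fasn* were chosen after their values were seen. The genes and lists were chosen with earlier results of these data known.

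Deviations from group means were correlated with 100000 permutations within groups (Python 3.11.15, scipy 1.17.1). Alternatives were a replicate block, median centring, quantile normalization, leaving out probe sets with a mean under 6, array weights, a trended robust prior, the axis score as a covariate, only the groups compared, 1 probe set per gene, the methods' t-test, an added fold of 1.5 and leaving out each array. Same-numbered replicates did not deviate together (36 correlations from -0.273 to 0.431, median -0.034) and were not treated as pairs.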

Additional observations from a re-analysis of the deposited data

Results flagged for a closer look

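Of 40 groups of 6 livers (10 genes in 4 groups), 5 had a liver farther from its neighbours than Dixon's 95% critical ratio allows, and chance flags about 1 in 20 groups. *Elovl2* was low in chow-fed *Ogg1-/-* replicate 1 (10.93) and in HFD-fed *Ogg1-/-* replicate 1 (11.09), the livers with the highest axis score of their groups. *Fads6* was low in HFD-fed *Ogg1-/-* replicate 4 (9.25) and in WT HFD replicate 2 (9.0). *Fads3* was low in chow-fed WT replicate 2 (7.07).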

How the results depend on the processing

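The calls of *Elovl2* and *Elovl3* between genotypes on the HFD held in all 34 alternatives. The count of the 10 genes that passed there was 2. It was 4 with dim probe sets left out (*Elovl6* and *Fads6* joined), where 3514 of 17321 probe sets were lower and 4084 higher. It was 3 with array weights, with median centring and with the methods' t-test (*Fads6* joined in each), and ran from 2 to 3 with each array left out. On chow the count was 1, and it was 0 with array weights, the axis score as a covariate, median centring, only the 2 groups compared, the replicate block, the methods' t-test and the trended robust prior, and ran from 0 to 1 with each array left out. For the HFD against chow in *Ogg1-/-* livers it was 2, was 1 with the axis score, with an added fold of 1.5 and with the methods' t-test, was 3 with array weights (*Elovl2* joined, at -0.50 and limma adjusted p = 0.00552), and ran from 1 to 3 with each array left out. In WT livers it was 1, was 2 with array weights, 0 with the replicate block and 0 with the methods' t-test, and ran from 0 to 1 with each array left out. A count of 1 was not always *Elovl3*. With the axis score *Elovl3* was lost and *Elovl2* passed (limma adjusted p = 0.0188). Without WT HFD replicate 2, *Elovl3* was lost (limma adjusted p = 0.0686) and *Fads2* passed (limma adjusted p = 0.00261). The interaction count was 0, and ran from 0 to 1 with each array left out. With the replicate block the *Elovl3* difference on chow stayed at -0.67 (limma adjusted p = 0.0622) and that between diets in WT livers at -0.66 (limma adjusted p = 0.051), and no other call changed. The 16 correlated pairs became 28 with the axis score removed, and 0 within the 12 chow arrays. Why these counts moved was not tested.

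Differences that did not pass changed sign as follows. With the axis score, *Elovl1* was at -0.03 on chow and -0.15 on the HFD between genotypes, *Elovl2* at 0.05 on chow, *Fads3* at -0.05 on the HFD, and *Fads6* at -0.02 on chow and at -0.01 for the HFD against chow in *Ogg1-/-* livers. With quantile normalization, *Fads3* was at 0.01 both between genotypes on chow and between diets in *Ogg1-/-* livers. With array weights the *Elovl1* interaction was 0.01. With each array left out, *Elovl1* ran from -0.03 to 0.14 between genotypes on the HFD, from -0.09 to 0.07 between diets in WT livers and from -0.16 to 0.04 in the interaction. *Fads1* ran from -0.01 to 0.03 between genotypes on chow and from -0.01 to 0.11 between diets in *Ogg1-/-* livers. The *Fads2* interaction ran from -0.10 to 0.13. Between genotypes on chow, *Fads3* ran from -0.05 to 0.04 and *Fads6* from -0.01 to 0.05, and *Scd2* ran from -0.06 to 0.09 on the HFD.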
